A study of Mus musculus with 11 samples.

Results

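The genes described here are 49 genes of DNA replication and S phase, the part of the cell cycle in which DNA is copied. They were taken by symbol, as a list by function drawn up with earlier results of these data known, from a deposited table of read counts for 55291 genes, and all 49 were present. All 49 also passed the filter on low counts in each comparison. They cover the MCM helicase, the origin recognition complex, licensing, helicase activation, the replicative polymerases, the sliding clamp and its loader, the single-strand binding protein RPA, Okazaki fragment processing, nucleotide supply and the control of S phase.

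RNA was sequenced from E14 mouse embryonic stem cells, cultured without feeders in serum with LIF, a GSK3 inhibitor and a MEK inhibitor. In the tagged lines 10E and 11D a V5 tag and an auxin-inducible degron were added at the C terminus of SPT16, the large subunit of FACT, a histone chaperone. A degron of this kind allows the auxin 3-indoleacetic acid (IAA) to direct the protein to degradation. The tagged lines received EtOH, the solvent (4 libraries: 2 from 10E and 2 from 11D), or 500 nM IAA (3 libraries: 1 from 10E and 2 from 11D), each for 24 hours. An untagged line, taken to be the columns coded TIR1, received 500 nM IAA for 24 hours (3 libraries), and no EtOH library of it was analysed here. The study's design text counts 12 libraries and the sample labels 11, and the count table analysed here holds 10. A free-text label describes ethanol for all samples, those titled IAA included, so treatments were taken from the titles and the short treatment labels. Each tagged line was targeted independently, so a line stands for a single targeting event. Whether replicates are separate cultures is not stated, and p-values therefore rest on a spread between libraries that may be technical.

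Total counts were 3100127 to 13510163 per library. The lowest count of any member was 36, for Gins1 in 11D IAA replicate 1, and the highest was 6737, for Mcm3 in 10E EtOH replicate 2. RNA of the targeted gene Supt16 stood at 383, 415, 363 and 389 CPM (counts scaled to library size, here with TMM factors, which set libraries on a common scale) in tagged EtOH, at 279, 253 and 286 in tagged IAA and at 552, 537 and 576 in untagged IAA. Since a degron acts on protein, these RNA levels do not check its loss, and exons of Supt16 overlap those of Rpgrip1. The stem cell markers, 10 genes such as Nanog and Esrrb, summed to between 7618 and 9416 CPM in tagged EtOH, between 3016 and 3382 in tagged IAA and between 8026 and 8621 in untagged IAA. Fibroblast markers summed to 187 to 215, 125 to 152 and 140 to 170 CPM in the same order, and 1 of the 10 was at 0 in all libraries. Mitochondrially encoded transcripts took 1.67% to 2.26%, 2.45% to 3.16% and 2.28% to 2.73% of counts.

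As background, DNA replication starts where the origin recognition complex, with CDC6 and CDT1, loads the ring-shaped MCM helicase on DNA before S phase. Kinases, MCM10, CDC45 and the GINS complex then activate the helicase, polymerase alpha with primase lays down primers, and polymerases delta and epsilon extend them with the clamp PCNA. Many of these genes are known targets of E2F transcription factors, which are held back by RB proteins, and mouse embryonic stem cells are known for a short G1 phase and a large share of cells in S phase.

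Promoter sequences of 300 bases, from 250 before to 50 after the annotated start, were taken from RefSeq (GRCm38.p6) and were found for 40 of the 49 genes. An E2F-type motif, any of TTTCCCGC, TTTCGCGC, TTTGCCGC and TTTGGCGC on either strand, occurred in 15 of the 40 (37.5%). The same letters occurred in 2.6% of all 27025 genes with a promoter entry and in 4.6% of the 11738 of them tested for IAA against EtOH. A gene can have several entries, and it was counted when any of them held a match. The CCAAT box, CCAAT on either strand, occurred in 24 of the 40 (60%), against 41.1% and 43.3%. A match describes letters in this window only. Matches of different E2F-type motifs overlap in the promoters of Mcm5 and Mcm6.

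The sequences below show the E2F-type matches, in capitals, in promoters of genes on which the results turn. Pola1 (chrX:93632106-93632405, minus strand) had the largest fall of the 49, Mcm3 (chr1:20820263-20820562, minus strand) the highest level per kilobase, and Mcm6 (chr1:128359656-128359955, minus strand) the most matches. Pold1 (chr7:44548766-44549065, minus strand) and Gins3 (chr8:95633309-95633608, plus strand) carry the same motif letters and moved in opposite directions. All 5 are written 5′ to 3′ on the strand of the gene.
Pola1: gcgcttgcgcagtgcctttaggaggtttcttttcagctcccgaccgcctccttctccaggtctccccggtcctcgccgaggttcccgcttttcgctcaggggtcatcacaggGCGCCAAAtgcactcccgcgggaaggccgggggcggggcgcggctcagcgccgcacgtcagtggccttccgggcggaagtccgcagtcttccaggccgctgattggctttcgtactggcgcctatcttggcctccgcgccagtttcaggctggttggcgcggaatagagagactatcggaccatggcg
Mcm3: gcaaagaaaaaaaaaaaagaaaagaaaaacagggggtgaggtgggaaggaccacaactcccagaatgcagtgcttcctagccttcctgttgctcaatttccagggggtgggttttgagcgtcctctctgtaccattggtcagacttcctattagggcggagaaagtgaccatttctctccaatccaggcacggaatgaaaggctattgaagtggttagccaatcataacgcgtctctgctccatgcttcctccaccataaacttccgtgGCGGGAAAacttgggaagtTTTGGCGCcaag
Mcm6: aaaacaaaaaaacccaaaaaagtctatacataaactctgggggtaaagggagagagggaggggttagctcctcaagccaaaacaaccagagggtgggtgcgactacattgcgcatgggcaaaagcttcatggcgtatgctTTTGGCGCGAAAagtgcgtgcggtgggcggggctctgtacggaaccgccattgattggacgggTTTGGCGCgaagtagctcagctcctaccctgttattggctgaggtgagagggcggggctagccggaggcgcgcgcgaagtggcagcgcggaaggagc
Pold1: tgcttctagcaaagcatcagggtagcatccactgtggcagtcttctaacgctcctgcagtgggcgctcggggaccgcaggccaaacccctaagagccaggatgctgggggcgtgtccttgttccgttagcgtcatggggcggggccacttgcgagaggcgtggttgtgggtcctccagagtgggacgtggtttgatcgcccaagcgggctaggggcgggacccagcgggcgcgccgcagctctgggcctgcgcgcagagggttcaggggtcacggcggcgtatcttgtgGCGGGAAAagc
Gins3: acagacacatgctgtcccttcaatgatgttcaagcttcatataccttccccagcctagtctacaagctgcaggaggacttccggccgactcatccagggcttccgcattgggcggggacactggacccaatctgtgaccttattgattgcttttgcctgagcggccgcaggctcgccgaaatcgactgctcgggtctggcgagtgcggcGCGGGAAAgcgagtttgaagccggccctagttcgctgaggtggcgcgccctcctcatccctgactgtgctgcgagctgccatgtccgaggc

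The match in Pola1 begins at -138 from the start and reads as the reverse complement of TTTGGCGC. Mcm3 has its 2 matches after the start, at 19 and 38, and Mcm6 has 3 before it, at -110, -106 and -47. On the strand printed, the reverse complement of TTTCCCGC begins at 39 in Pold1 and at -41 in Gins3. Among genes with an entry, 11 of the 27 that fell under IAA held an E2F-type match (40.7%) and 4 of the 13 that did not fall (30.8%). The median log2 fold change, IAA against EtOH, was -0.58 over the 15 genes with a match and -0.41 over the 25 without. Over all tested genes with an entry it was -0.21 for the 540 with a match and -0.02 for the 11198 without. The CCAAT box occurred in 14 of the 27 genes that fell (51.9%) and in 10 of the 13 that did not (76.9%), and the median log2 fold change was -0.39 over the 24 genes with it and -0.52 over the 16 without. These shares and medians were not tested.

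The main comparison asks how RNA of these genes differed after 24 hours with IAA in cells whose SPT16 carries the degron. Of the 49 genes, 34 were lower and 3 were higher in IAA than in EtOH by edgeR's quasi-likelihood test at a false discovery rate (FDR) under 0.05, with line as a term. Among all 17904 genes tested, 28.1% were lower and 29.3% were higher. The median log2 fold change was -0.48 over the 49 genes and 0.03 over all genes tested, and 44 of the 49 lay below that median. Their summed level lay between 7727 and 8506 CPM in tagged EtOH, between 5065 and 5481 in tagged IAA and between 7620 and 8113 in untagged IAA, so the tagged IAA libraries lay below all others. The 21 genes that were lower under each of the 16 settings tried include all 6 MCM subunits, Pola1, Mcm10, Gins1, Gins2, Rfc5, Cdt1, Pold1, Pold2, Tipin and Tk1. Slbp was the 1 gene that was higher under each of them. How many of all genes tested were lower or higher under each of the 16 settings was not counted, and the settings share libraries.

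How many of the other genes changed depends on the scaling. TMM factors lay between 0.886 and 0.983 in tagged EtOH, between 1.13 and 1.20 in tagged IAA and between 0.945 and 0.958 in untagged IAA. With library totals in place of TMM, 21 of the 49 were lower and 11 were higher, against 15.9% and 43.1% of all genes tested. The median log2 fold change of the 49 was then -0.15, while the median of all genes moved from 0.03 to 0.36 and the lower share of all calls from 49% to 27.0%. Under that scaling 43 of the 49 still lay below the median of all genes. All 21 genes lower with library totals were lower with TMM, 13 genes were lower with TMM only, and 8 were higher with library totals only. Counts give shares of a library and not amounts per cell, and in bulk RNA fewer cells in S phase and less RNA of these genes per cell cannot be told apart. The plot of changes by role shows both scalings side by side.

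**Figure D1:**
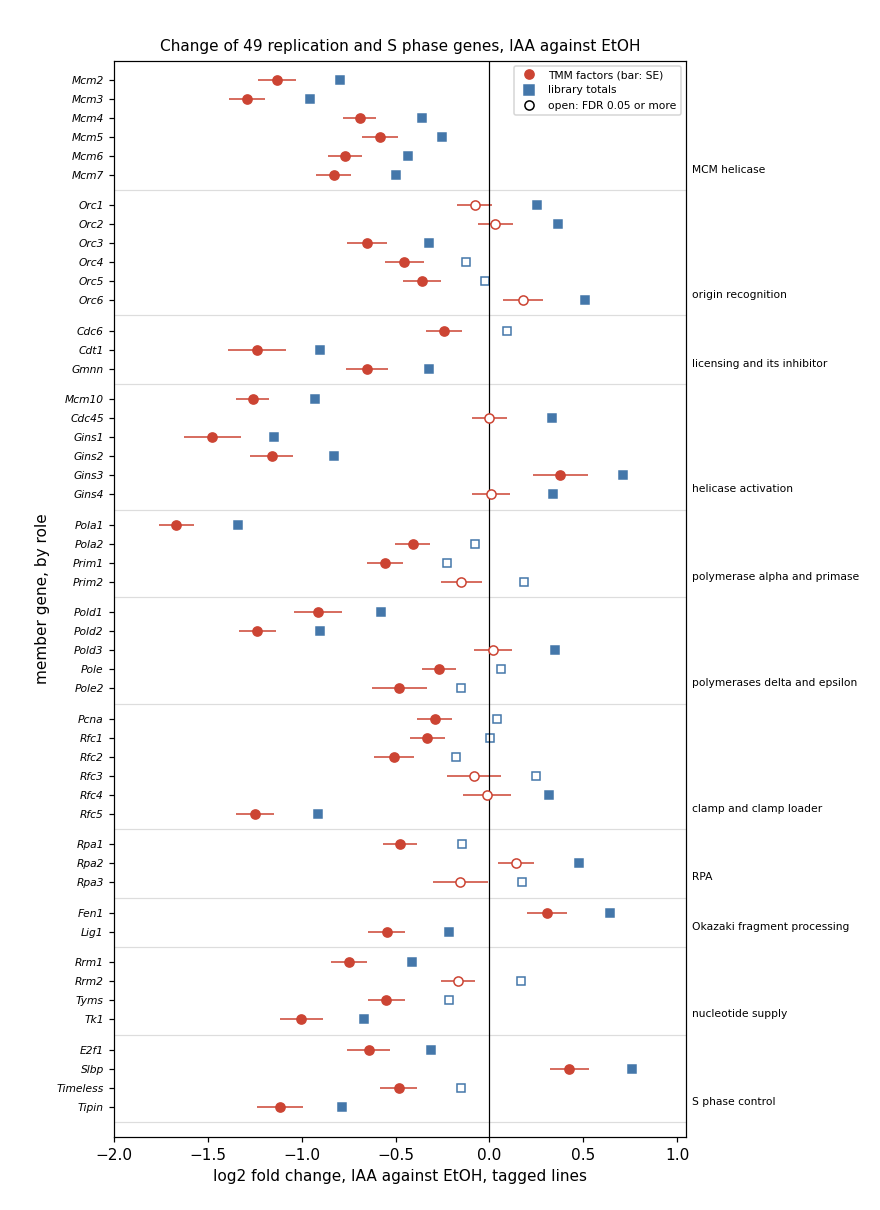
Log2 fold change of IAA against EtOH in the tagged lines (x axis) for each of the 49 genes (y axis, grouped by role). Red circles use TMM factors with a bar of 1 standard error, blue squares use library totals, and open symbols did not pass an FDR of 0.05. Each gene sits further right with library totals, and the MCM subunits and Pola1 lie left of 0 on both scales while Slbp, Gins3 and Fen1 lie right of it.

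Over the single libraries, the range of the 3 tagged IAA libraries lay wholly below that of the 4 EtOH libraries for 33 of the 49 genes and wholly above it for 2, Slbp and Gins3. For the other 14 the ranges overlapped. With library totals these counts were 20, 11 and 18. How many of all genes tested had ranges apart in this way was not counted. These counts are therefore a description and do not set the 49 genes apart from the rest. In the authors' deposited table, which compares IAA with EtOH, 29 of the 49 genes were lower and 3 were higher at an adjusted p under 0.05, against 17.8% and 18.8% of the 21210 genes with an adjusted p in that table.

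**Figure D2:**
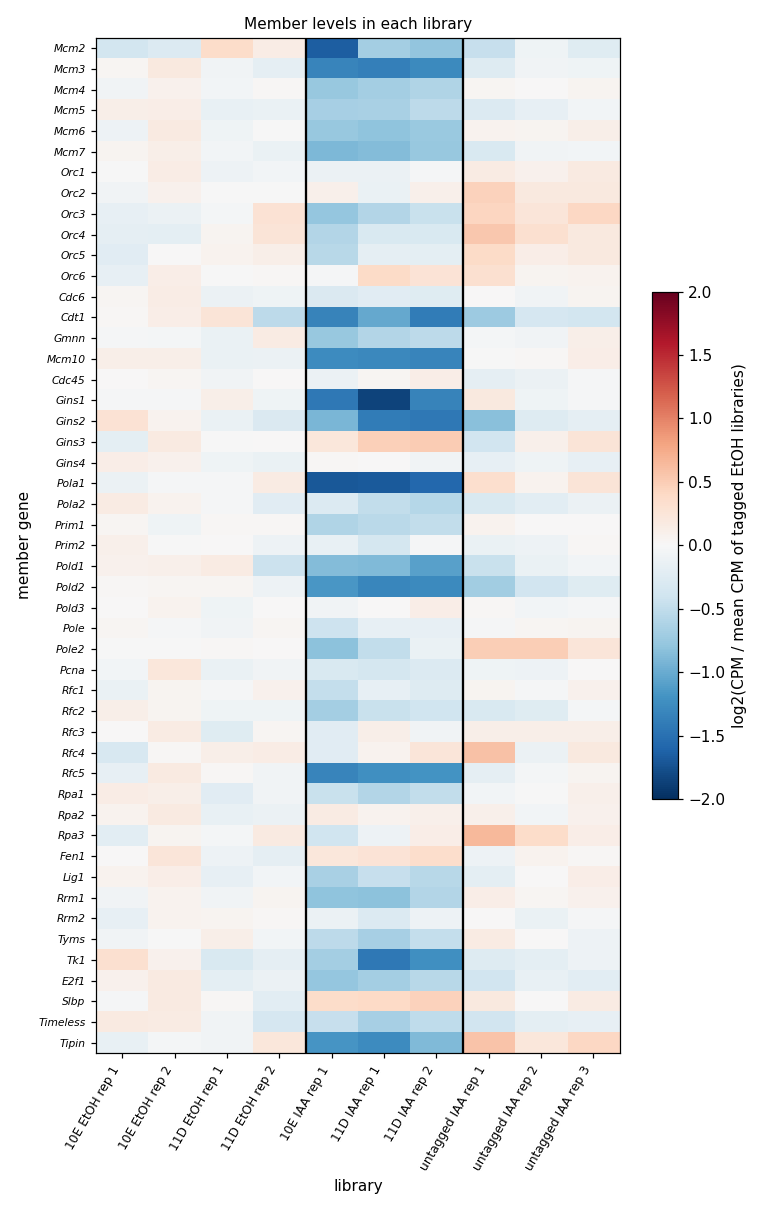
Level of each of the 49 genes (rows) in each of the 10 libraries (columns), as log2 of the TMM-scaled CPM over the mean of the 4 tagged EtOH libraries, where blue is lower and red is higher. The 3 tagged IAA libraries between the black lines are blue for most rows, with Pola1 and Gins1 among the darkest, and the 3 untagged IAA libraries lie near the EtOH libraries for most rows.

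The MCM helicase, the hexamer that unwinds DNA at the fork, fell in all 6 subunits, with a median log2 fold change of -0.80 with TMM and -0.47 with library totals. Mcm3 (chr1:20802968-20820312 on GRCm38) stood at 596, 664, 557 and 514 CPM in tagged EtOH, at 234, 226 and 241 in tagged IAA and at 489, 553 and 549 in untagged IAA. The tagged IAA libraries lay below every other library, close together. The log2 fold change of Mcm3 was -1.29 ± 0.10 (SE, edgeR FDR 2.31e-08). Mcm2 stood at 292 and 311 CPM in 10E EtOH and at 487 and 420 in 11D EtOH, and at 120 in 10E IAA against 235 and 218 in 11D IAA. The 11D libraries lay above the 10E libraries under either treatment, and IAA lay below EtOH within each line, at -1.13 ± 0.10 overall (edgeR FDR 1.54e-07). Mcm7 had a log2 fold change of -0.83, Mcm6 of -0.77, Mcm4 of -0.69 and Mcm5 of -0.58, and in each of these the tagged IAA libraries lay below all EtOH libraries. Per kilobase of merged exon, Mcm3 was the highest of the 49 genes in tagged EtOH at 155 ± 17.0 CPM (SD, n = 4), followed by Mcm5 at 126 ± 13.5.

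In the origin recognition complex, which marks origins and recruits the helicase, 3 subunits fell and 3 did not pass the test. Orc3 had the largest change, at -0.65 ± 0.11, followed by Orc4 at -0.45 ± 0.10 and Orc5 at -0.36 ± 0.10. Orc1 (-0.08), Orc2 (0.03) and Orc6 (0.18) did not pass. With library totals these 3 were called higher, Orc3 stayed lower and Orc4 and Orc5 did not pass. Without 10E IAA replicate 1, Orc5 did not pass with TMM either (-0.29, FDR 0.0658). Exons of all of them but Orc3 overlap those of another gene.

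The 3 licensing genes fell. Cdt1, which brings the helicase to origins, stood at 217, 232, 254 and 148 CPM in tagged EtOH, at 84.1, 105 and 81.0 in tagged IAA and at 128, 168 and 165 in untagged IAA. The EtOH libraries were spread widely, and all of them lay above the tagged IAA libraries. Its log2 fold change was -1.24 ± 0.16 (edgeR FDR 5.55e-06). Geminin, encoded by Gmnn, inhibits CDT1. Gmnn stood at 62.0, 61.0, 57.2 and 70.5 CPM in tagged EtOH, at 37.2, 41.5 and 43.6 in tagged IAA and at 60.7, 59.7 and 68.0 in untagged IAA, a log2 fold change of -0.65 ± 0.11 (edgeR FDR 0.000136). So the loader and its inhibitor were both lower, without overlap between tagged IAA and EtOH. Cdc6, the ATPase that loads the helicase with CDT1, had a smaller change of -0.24 ± 0.10 (edgeR FDR 0.0427), which was 0.09 and did not pass with library totals. The call for Cdc6 was also lost with DESeq2, with the replicate block (-0.23, FDR 0.0563) and without any 1 of 10E EtOH replicate 2, 10E IAA replicate 1, 11D EtOH replicate 2 and either 11D IAA library (FDR 0.0561 to 0.325).

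The genes of helicase activation split. Mcm10, a factor needed to start unwinding, stood at 276, 278, 235 and 236 CPM in tagged EtOH, at 108, 105 and 102 in tagged IAA and at 256, 259 and 281 in untagged IAA. Its log2 fold change was -1.26 ± 0.09 (edgeR FDR 1.46e-08), with no overlap. GINS is a complex of 4 subunits that travels with the helicase, and its subunits moved apart. Gins1 (chr2:150905400-150931280) stood at 36.6, 36.7, 40.4 and 34.8 CPM in tagged EtOH, at 13.8, 10.2 and 14.8 in tagged IAA and at 42.5, 34.8 and 36.4 in untagged IAA, a log2 fold change of -1.48 ± 0.15 (edgeR FDR 6.26e-07). Gins2 stood at 81.9, 70.7, 61.5 and 55.2 CPM, at 35.9, 25.6 and 25.1, and at 37.9, 56.3 and 59.6 in the same order, a change of -1.16 ± 0.11 (edgeR FDR 4.65e-07). Both were lower in every tagged IAA library than in any EtOH or untagged library. Gins3 stood at 16.6, 21.5, 18.9 and 19.1 CPM in EtOH, at 22.3, 26.5 and 27.0 in tagged IAA and at 14.6, 20.3 and 22.9 in untagged IAA. It was higher by 0.38 ± 0.15 (edgeR FDR 0.0363), and its tagged IAA libraries overlapped the untagged ones. The call for Gins3 was lost under 7 of the 15 alternatives, among them leaving out 10E EtOH replicate 1 or any 1 of the 4 libraries of 11D (FDR 0.0807 to 0.0961). Gins4 (0.01 ± 0.10) and Cdc45 (-0.00 ± 0.09), the other helicase partner, did not pass, and both were called higher with library totals. Exons of Gins2 overlap those of Gse1, and exons of Cdc45 those of Ufd1.

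Polymerase alpha with primase starts each DNA strand. Pola1 (chrX:93304767-93632155), its catalytic subunit, stood at 213, 227, 228 and 258 CPM in tagged EtOH, at 71.1, 72.5 and 78.1 in tagged IAA and at 293, 243 and 275 in untagged IAA. Its tagged IAA libraries lay close together and far below the rest. This was the largest fall of the 49 genes, at -1.67 ± 0.09 (edgeR FDR 1.77e-09). The other subunits changed less, with -0.56 ± 0.10 for the primase gene Prim1 and -0.41 ± 0.09 for Pola2, the accessory subunit. Prim2, the large primase subunit, had a change of -0.15 ± 0.11 that did not pass. With library totals Pola1 was the 1 gene of these 4 that stayed lower.

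Of polymerases delta and epsilon, which copy the lagging and the leading strand, 4 of 5 genes fell. Pold2, an accessory subunit of delta (chr11:5872180-5878292), stood at 96.6, 98.2, 98.2 and 88.6 CPM in tagged EtOH, at 42.5, 38.7 and 39.3 in tagged IAA and at 58.7, 73.5 and 80.8 in untagged IAA. Its 3 groups did not overlap, with tagged EtOH highest and tagged IAA lowest. The log2 fold change of IAA against EtOH was -1.24 ± 0.10 (edgeR FDR 5.32e-08). Pold1, the catalytic subunit of delta, had a change of -0.91 ± 0.13 (edgeR FDR 1.61e-05), whereas Pold3, another accessory subunit, had 0.02 ± 0.10 and did not pass. Pole, the catalytic subunit of epsilon, had -0.27 ± 0.09 and Pole2 had -0.48 ± 0.15, and neither passed with library totals. Both calls were lost without 10E IAA replicate 1 (-0.15 with an FDR of 0.225 for Pole, -0.28 with an FDR of 0.174 for Pole2), and that for Pole without 11D IAA replicate 2 (-0.27, FDR 0.0585).

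Among the clamp and its loader, 4 of 6 genes fell. Pcna, the clamp itself, stood at 175, 213, 165 and 173 CPM in tagged EtOH, at 146, 142 and 150 in tagged IAA and at 171, 168 and 182 in untagged IAA. The ranges did not overlap, and the difference was small, at -0.29 ± 0.10 (edgeR FDR 0.0157), and was 0.04 with library totals. Its call was lost without 10E EtOH replicate 2 or 10E IAA replicate 1 (FDR 0.0506 and 0.165). Rfc5, a small subunit of the clamp loader, stood at 153, 194, 174 and 163 CPM in EtOH, at 68.5, 73.4 and 75 in tagged IAA and at 151, 168 and 179 in untagged IAA. Its fall of -1.25 ± 0.10 (edgeR FDR 6.84e-08) was the largest of the loader, though its exons overlap those of Wsb2. Rfc2 had -0.51 ± 0.11 and Rfc1 had -0.33 ± 0.09, and the call for Rfc1 was lost without 10E IAA replicate 1 (-0.25, FDR 0.0818). With library totals neither passed, at -0.18 for Rfc2 (FDR 0.169) and 0.00 for Rfc1 (FDR 0.995). Rfc3 (-0.08) and Rfc4 (-0.02) did not pass, and Rfc4 was called higher with library totals.

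RPA coats single-stranded DNA. Its large subunit gene Rpa1 fell by 0.48 on the log2 scale, while Rpa2 (0.14 ± 0.09) and Rpa3 (-0.16 ± 0.15) did not pass. With library totals Rpa1 was at -0.15 and did not pass (FDR 0.176), and Rpa2 was called higher. The 2 genes of Okazaki fragment processing went opposite ways. Lig1, which seals the fragments, had a change of -0.55 ± 0.10. Fen1, the flap nuclease, stood at 79.2, 93.0, 73.0 and 69.1 CPM in tagged EtOH, at 91.7, 95 and 100 in tagged IAA and at 73.4, 82.7 and 79.7 in untagged IAA. Its rise of 0.31 ± 0.11 (edgeR FDR 0.0213) was lost under 7 of the 15 alternatives, among them leaving out 10E EtOH replicate 1 or any 1 of the 4 libraries of 11D (FDR 0.0574 to 0.0785). In Fen1, 1 EtOH library lay within the range of tagged IAA. Exons of Fen1 overlap those of Tmem258, and those of Lig1 overlap Zswim9.

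In nucleotide supply, 3 of 4 genes fell. Tk1, which salvages thymidine, had a change of -1.0 ± 0.11 and has exons that overlap those of Afmid. The subunits of ribonucleotide reductase differed: Rrm1 had -0.75 ± 0.09 (edgeR FDR 6.02e-06), and Rrm2, at -0.17 ± 0.09, did not pass. Tyms, thymidylate synthase, had -0.55 ± 0.10, and did not pass with library totals.

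Of the genes of S phase control, 3 of 4 fell. E2f1, a transcription factor that activates many replication genes, stood at 86.1, 92.0, 71.1 and 74.8 CPM in tagged EtOH, at 47.3, 50.6 and 55.0 in tagged IAA and at 62.4, 73.2 and 70.2 in untagged IAA, a change of -0.64 ± 0.11 (edgeR FDR 0.000179). Its tagged IAA libraries lay below all others. Slbp, which binds the stem-loop of histone mRNAs, stood at 72.3, 83.0, 74.6 and 63.6 CPM in EtOH, at 95, 96.7 and 101 in tagged IAA and at 84.3, 73.7 and 82.6 in untagged IAA. Here tagged IAA lay above every other library, and the rise was 0.43 ± 0.10 (edgeR FDR 0.00222). Exons of Slbp overlap those of a predicted gene on the opposite strand. Tipin and Timeless encode partners in the complex that protects the fork. Tipin had a change of -1.12 ± 0.12 and Timeless one of -0.48 ± 0.10, and the latter did not pass with library totals.

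**Figure D3:**
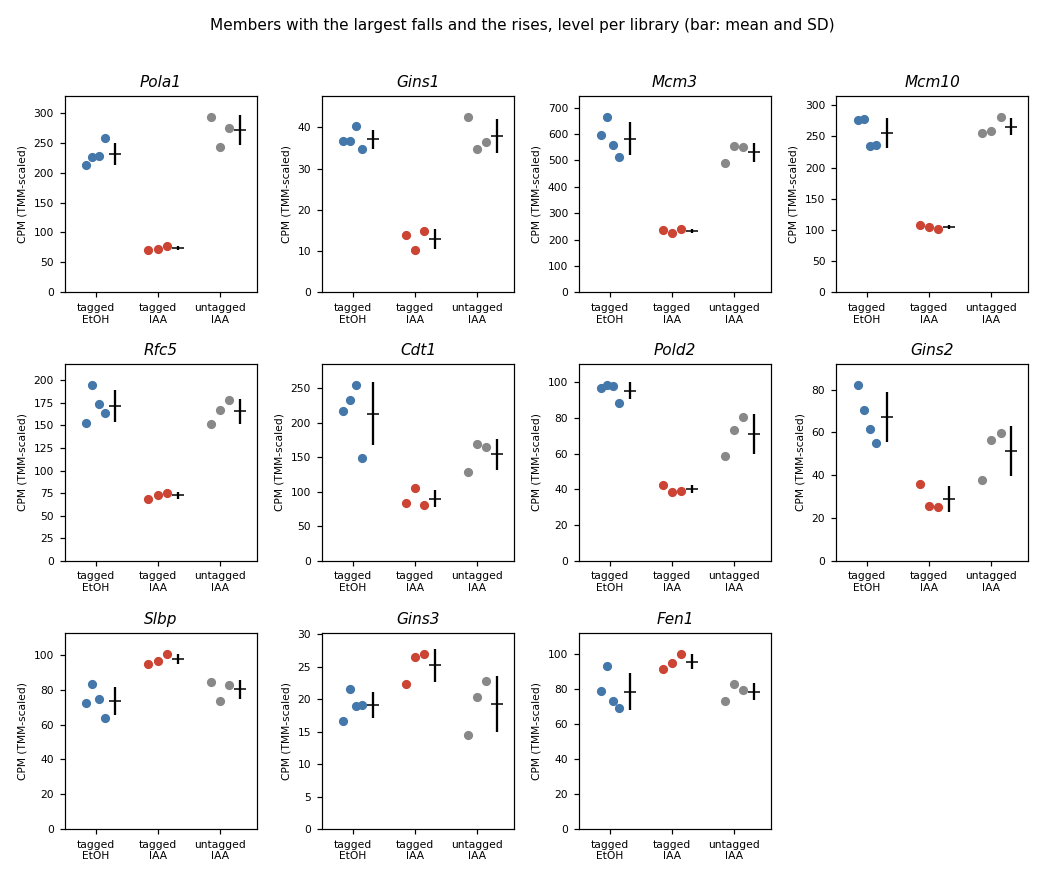
TMM-scaled CPM (y axis, from 0) of the 8 genes with the largest falls and the 3 that rose, with a point per library and a bar for mean ± SD of 4 tagged EtOH, 3 tagged IAA and 3 untagged IAA libraries. For Pola1 the tagged IAA points lie at 71.1 to 78.1 and all others at 213 or above, while for Slbp they lie at 95 to 101 and all others at 84.3 or below.

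Within a library, the ratio of the counts of 2 genes does not depend on the scaling. Ratios were computed for 7 pairs of genes that share a complex or a step. The pairs were chosen after the values were seen, so the ratios are a description without a test, and they show unequal change only. The ratio of Gins1 to Gins3 counts was 1.97 ± 0.241 (SD, n = 4) in tagged EtOH, 0.518 ± 0.118 (n = 3) in tagged IAA and 2.07 ± 0.736 (n = 3) in untagged IAA. Pola1 counts were 3.91 ± 0.553 times those of Prim2 in tagged EtOH, 1.41 ± 0.128 times in tagged IAA and 4.77 ± 0.551 times in untagged IAA. For Pold2 to Pold3 the ratios were 1.37 ± 0.0940, 0.569 ± 0.0662 and 1.04 ± 0.179 in the same order. Counts also grow with exon length, so a ratio of 1 does not mark equal RNA levels. Per kilobase of merged exon in tagged IAA, Gins1 stood at 8.53 ± 1.57 CPM (SD, n = 3) and Gins3 at 9.32 ± 0.94. In the same libraries Pola1 stood at 8.39 ± 0.417 and Prim2 at 8.90 ± 0.981. Pold2 stood at 21.2 ± 1.07 there and Pold3 at 15.4 ± 1.13. For Rfc5 to Rfc4 the ratio was 5.37 ± 0.688, 2.21 ± 0.263 and 4.53 ± 1.29, and for Lig1 to Fen1 it was 4.24 ± 0.324, 2.36 ± 0.163 and 4.16 ± 0.324. The ratio of Rrm1 to Rrm2 was 0.705 ± 0.0441, 0.472 ± 0.0305 and 0.774 ± 0.0162. Even within the MCM ring, Mcm3 to Mcm5 went from 1.16 ± 0.0631 in tagged EtOH to 0.708 ± 0.0266 in tagged IAA, with 1.18 ± 0.0509 in untagged IAA. In none of the 7 pairs did the tagged IAA libraries overlap the EtOH libraries.

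**Figure D4:**
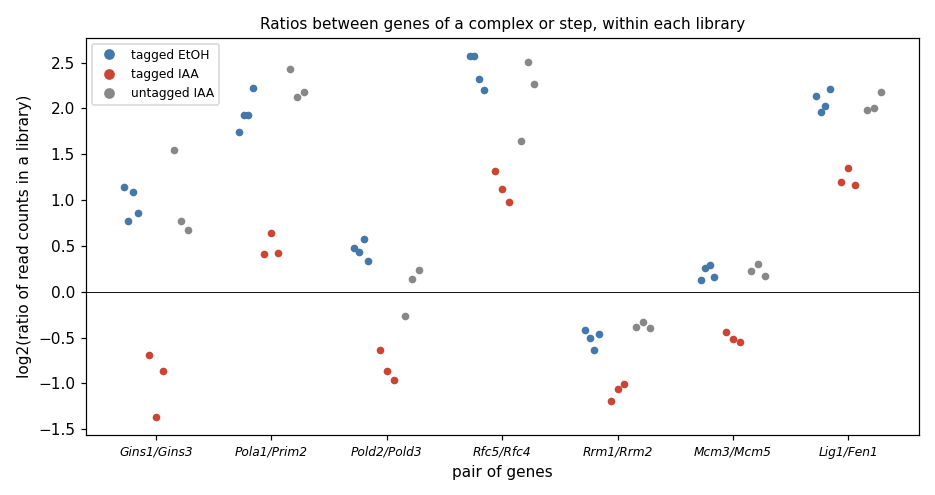
Log2 of the ratio of read counts of 2 genes within a library (y axis) for 7 pairs (x axis), with a point per library. In each pair the 3 tagged IAA points lie below all EtOH and untagged points.

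Levels differed widely among the 49 genes. Per kilobase of merged exon in tagged EtOH, levels went from 155 CPM for Mcm3 to 7.03 ± 0.739 for Gins3, with Rfc3 at 7.83 ± 0.884 and Orc4 at 9.15 ± 1.40 next to it. Gins3 and Rfc3 did not differ beyond their SD. Spearman's rho between that level and the log2 fold change was -0.33 over the 49 genes. For the span of the gene on the chromosome it was -0.01 over the 49 genes and -0.14 over 17468 genes tested. Points in these correlations are genes measured in the same libraries. The tagged EtOH libraries enter both the level and the fold change, so noise in them alone can push the rho for level below 0.

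The comparison of tagged IAA with untagged IAA holds the treatment constant and differs in the line. Of the 49 genes, 35 were lower and 2 were higher in tagged IAA (edgeR FDR under 0.05), against 27.8% and 27.9% of the 17439 genes tested. The median log2 difference was -0.56 over the 49 genes and 0.02 over all genes tested. Pola1 had the largest difference, at -1.88 ± 0.11 (edgeR FDR 4.93e-09), followed by Tipin at -1.5 ± 0.14 and Gins1 at -1.48 ± 0.16. Mcm3 differed by -1.18 ± 0.10, Mcm10 by -1.33 ± 0.09 and Rfc5 by -1.22 ± 0.11. Fen1 (0.27 ± 0.10) and Slbp (0.27 ± 0.11) were the genes that were higher. Both calls were lost with the replicate block (FDR 0.0709 for Fen1, 0.102 for Slbp) and without any 1 of 11D IAA replicates 1 and 2 and untagged replicates 2 and 3, and that for Fen1 also without 11D EtOH replicate 1 or untagged replicate 1 (FDR 0.0550 to 0.180). With library totals 23 were lower and 8 higher, against 17.2% and 39.6% of all genes tested, and the median was -0.26 over the 49 genes and 0.32 over all genes.

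Some genes had other values against untagged IAA than against EtOH, and the tagged IAA libraries are shared by these comparisons. Orc1, not called against EtOH, was lower than in the untagged line by -0.24 ± 0.09 (edgeR FDR 0.0363), and Rpa3 by -0.56 ± 0.17 (edgeR FDR 0.0113). With library totals neither passed, at 0.06 for Orc1 (edgeR FDR 0.619) and -0.26 for Rpa3 (edgeR FDR 0.208). Without 10E IAA replicate 1 the value of Rpa3 was -0.31 and did not pass (FDR 0.154), and the call for Orc1 was lost with DESeq2, with the replicate block (FDR 0.148) and without any 1 of the 3 tagged IAA libraries, 11D EtOH replicate 2 and untagged replicates 2 and 3 (FDR 0.0535 to 0.113). Pole2 had -0.95 ± 0.14 against untagged IAA. In Pole2 the EtOH libraries (32.5 to 33.2 CPM) lay below the untagged libraries (39.0 to 46.4 CPM) and above the tagged IAA libraries (18.6 to 30.0 CPM). Pola2, lower than EtOH, was not called against untagged IAA, at -0.20 ± 0.10 (edgeR FDR 0.0963), and Gins3 was not called either, at 0.32 ± 0.18.

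Tagged EtOH was also set against untagged IAA, where tag and treatment differ together and cannot be told apart. None of the 49 genes was lower by edgeR and 1 was higher, against 2.29% and 1.27% of 17439 genes tested. At an unadjusted p under 0.05 in edgeR, 8 were lower and 7 higher, and the share of all genes at that threshold was not counted. DESeq2 called 3 of the 49 lower and 1 higher, against 543 lower and 350 higher of all 17439 genes. The gene that edgeR called higher was Pold2, with a log2 difference of 0.41 ± 0.11 (edgeR FDR 0.0482). Its call was lost with the replicate block (FDR 0.0506). It was also lost without any single library other than 11D EtOH replicate 2 or untagged IAA replicate 3 (FDR 0.0502 to 0.209). The median difference over the 49 genes was -0.02. The untagged libraries are shared with the comparison above.

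The tagged lines were compared before and after IAA. Under EtOH, 1 of the 49 genes was lower in 10E than in 11D, Mcm2 at -0.58 ± 0.11 (edgeR FDR 0.0146), and 0 were higher. At the same FDR, 1.95% of the 17904 genes tested were lower and 1.28% higher. DESeq2 called 0 of the 49 higher, against 175 of all genes. At an unadjusted p under 0.05 in edgeR, 11 of the 49 were higher. The share of all genes at an unadjusted p was not counted, here or in the test of response by line below. The call for Mcm2 was lost without 10E EtOH replicate 1 and without 11D IAA replicate 2 (FDR 0.0508 to 0.0902). Under IAA against EtOH, 33 of the 49 were lower and 0 higher within 10E (18.3% and 17.1% of all genes), and 28 were lower and 3 higher within 11D (23.1% and 23.1%). The median was -0.60 in 10E and -0.41 in 11D. With library totals 18 were lower and 3 higher within 10E (8.17% and 28.8% of all genes, median of the 49 genes -0.23), and 16 were lower and 9 higher within 11D (13.4% and 34.1%, median -0.10). With 1 library of 10E IAA, the values for 10E take its spread from the other groups.

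The difference between the lines in response to IAA was tested as an interaction, and 0 of the 49 genes and 0% of the 17904 genes tested passed in edgeR. Of the 49, 2 were lower in 10E and 0 higher at an unadjusted p under 0.05, and DESeq2 called 0 of them. These were Rfc2, at -0.45 ± 0.18, and E2f1, at -0.46 ± 0.20, each with an edgeR FDR of 0.938. For E2f1 the change was -0.93 ± 0.16 in 10E and -0.47 ± 0.13 in 11D, where the 10E value rests on 1 IAA library and its SE on the spread of the other groups. Pola1 fell to like extents, at -1.64 ± 0.15 in 10E and -1.69 ± 0.12 in 11D, with an interaction of 0.05 ± 0.18. Over the 49 genes the interaction had a median of -0.19, against -0.03 over all genes, and 37 lay below the latter.

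Other genes of the same pathways were counted in IAA against EtOH from lists chosen by function. Over all 17904 genes tested, 28.1% were lower and 29.3% higher, and the count of each list stands beside these shares. Of a list of 14 genes of origin firing and associated factors, 8 were lower and 3 higher, with a median log2 fold change of -0.37. Topbp1, a scaffold for helicase activation, had -1.25 ± 0.09, and Ticrr, which works with it, had -1.19 ± 0.10. Dnajc9, which encodes a histone chaperone and no firing factor and is 1 of the 3 that were higher, had 0.90 ± 0.12, and Donson, a factor of helicase assembly, had 0.72 ± 0.12. Of 18 fork factors, 7 were lower and 2 higher (median log2 fold change -0.30). Top2a, a topoisomerase, had -1.35 ± 0.10 and Pclaf, a PCNA partner, had -1.26 ± 0.17, while Pole3, a small subunit of polymerase epsilon, had 0.91 ± 0.12 and Esco2, a cohesin acetyltransferase, had 0.43 ± 0.10.

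Of 20 further genes of nucleotide synthesis, 11 were lower and 4 higher (median log2 fold change -0.32), against 28.1% and 29.3% of all genes. Umps and Paics, of pyrimidine and purine synthesis, had -0.93 ± 0.09 and -0.82 ± 0.10, and Dck and Rrm2b, a salvage kinase and the alternative small subunit of ribonucleotide reductase, had 0.63 ± 0.12 and 0.61 ± 0.15. Of 12 genes of the replication checkpoint, 7 were lower and 1 higher (median log2 fold change -0.30), among them the kinase gene Atr at -0.85 ± 0.10 and the clamp genes Rad9a at -1.13 ± 0.12 and Rad1 at 0.28 ± 0.11. Of 12 genes that rebuild chromatin behind the fork, 9 were lower and 1 higher (median log2 fold change -0.48). Uhrf1, which guides maintenance of DNA methylation, had -1.29 ± 0.10, Hat1, a histone acetyltransferase, had -1.07 ± 0.09, and the histone chaperone gene Asf1a had 0.31 ± 0.12. Ssrp1, the partner of SPT16 in FACT, had -1.08 ± 0.09 and Supt16 had -0.50 ± 0.09.

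Of 24 further genes of the E2F and RB network, 12 were lower and 7 higher (median log2 fold change -0.25). Among all genes tested, 28.1% were lower and 29.3% higher, and the higher count of this list lay near that share. E2f2, an activator like E2f1, stood at 26.4, 24.8, 30.4 and 30.9 CPM in tagged EtOH, at 9.19, 5.12 and 6.32 in tagged IAA and at 21.5, 21.5 and 27.4 in untagged IAA, a change of -2.04 ± 0.19 (edgeR FDR 2.53e-07). Rb1, which encodes the repressor RB, stood at 12.5, 11.1, 17.4 and 21.2 CPM, at 44.9, 46.9 and 56.9, and at 25.2, 17.2 and 13.9 in the same order, a change of 1.61 ± 0.15 (edgeR FDR 1.89e-07). Neither gene's tagged IAA range overlapped the other groups. Mybl2, a cell cycle transcription factor, had -1.12 ± 0.12, and the cyclin gene Ccne2 had 1.15 ± 0.17.

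With library totals, where 15.9% of all genes were lower and 43.1% higher, these lists held 5 lower and 4 higher of the 14 genes listed with origin firing, 3 and 6 of 18 fork factors, 6 and 8 of 20 nucleotide synthesis genes, 4 and 4 of 12 checkpoint genes, 4 and 2 of 12 chromatin genes and 5 and 9 of 24 E2F and RB genes. Without 10E IAA replicate 1, 7 of the 20 nucleotide synthesis genes and 7 of the 24 E2F and RB genes were lower. Over all 16548 genes then tested, 4070 were lower and 3888 higher. Without that library 0 checkpoint and 0 chromatin genes were higher, so the calls for Rad1 and Asf1a rest on it, and both were also lost without either 11D IAA library. Markers of other phases and states moved too. All 10 stem cell markers were lower with TMM, with a median of -1.52. Of 16 markers of G2 and M phase, 13 were lower and 0 higher with TMM (median log2 fold change -0.43). The TMM shares over all genes tested were 28.1% lower and 29.3% higher. With library totals 6 of the 16 were lower and 1 higher. Summed G2 and M markers lay between 3081 and 3668 CPM in tagged EtOH, between 2321 and 2667 in tagged IAA and between 3385 and 3507 in untagged IAA. Of the 6 fibroblast markers tested, Fbln1 and Pdgfrb were lower and Pdgfra was higher. The part of these markers in the change of the replication genes was not tested. Of the named genes outside the 49, exons of Ticrr, Donson, Top2a, Rrm2b, Umps, Paics, Rb1, Ccne2, Atr, Rad9a, Asf1a, Pdgfra and Ssrp1 overlap those of another gene.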

How the data were processed

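The labels list 11 RNA samples, and the count table analysed here has columns for 10 of them, with 1 IAA column for 10E. The authors deposited raw read counts, whole numbers by gene symbol, in 1 table. STAR, deepTools and mm10 are named in the submitters' processing notes. Not given in the sources used here are tool versions, the read counter, its annotation and its strand setting, so the 19 of the 49 genes whose exons overlap another gene's (GENCODE M21) are uncertain: Mcm7, Orc1, Orc2, Orc4, Orc5, Orc6, Cdc45, Gins2, Pole, Pole2, Rfc2, Rfc4, Rfc5, Rpa1, Fen1, Lig1, Tk1, Slbp and Timeless. Total RNA went into libraries made with a directional kit, per the labels. In the authors' deposited comparison table, the log2 fold change and the adjusted p-value were used for description only.

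Columns carry line codes, and nothing ties 10E or 11D to the clone numbers of the labels. Columns with the code TIR1 were taken as the untagged line, since no other code has a replicate 3 and lacks EtOH columns. Counts were tested with edgeR 4.0.16 in R 4.3.3 (quasi-likelihood F test, TMM factors, filterByExpr, Benjamini-Hochberg adjustment over all genes tested, FDR under 0.05) on the 7 tagged libraries, or on all 10 where the untagged line enters. The standard error is the absolute log2 fold change over the square root of F. Alternatives were DESeq2 1.42.0, other scalings, no filter, a replicate block and single libraries left out. Replicates of a group differed beyond sampling noise (chi-square over degrees of freedom 2.84 to 25.5). The 49 genes and the lists were chosen with earlier results of these data known. Every one of the 49 may be named. Values per library are given for the 8 largest falls and all rises, for Pcna, Gmnn and E2f1, and for a gene called in the comparison of tagged EtOH with untagged IAA. Up to 2 called genes per direction are named from each other list. Per-library values of Mcm2, Pole2, E2f2 and Rb1 were added after their values were seen.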

Additional observations from a re-analysis of the deposited data

Results flagged for a closer look

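Among the 4 tagged EtOH libraries, 3 of the 49 genes had a library far from the other 3. A rule of this kind flags about 1 in 20 groups by chance. Prim1 was at 83.4 CPM in 10E EtOH replicate 2, against 89.6 to 90.4 in the others. Pold1 was at 86.3 CPM in 11D EtOH replicate 2, against 123 to 130. Pold2 was at 88.6 CPM in the same library, against 96.6 to 98.2.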

How the results depend on the processing

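For IAA against EtOH, library totals gave 21 lower and 11 higher of the 49 genes and a median of -0.15, and turned Orc1 to 0.25, Cdc6 to 0.0922, Cdc45 to 0.33, Pole to 0.0608, Pcna to 0.0413, Rfc1 to 0.000752 and Rfc4 to 0.32. No filter on low counts left 1 gene higher. Leaving out single libraries gave 28 to 35 lower, 1 to 4 higher and a median of -0.54 to -0.40. The count of 1 higher came without any 1 of 10E EtOH replicate 1, 11D EtOH replicate 1, 11D EtOH replicate 2, 11D IAA replicate 1 and 11D IAA replicate 2. The cause of these changes was not tested. Against untagged IAA, library totals gave 23 lower, 8 higher and a median of -0.26, and turned Orc1 to 0.0577, Cdc6 to 0.0355, Pcna to 0.0490 and Timeless to 0.0205. No filter gave 0 higher, and leaving out single libraries gave 29 to 36 lower, 0 to 3 higher and a median of -0.56 to -0.41, with -0.41 without 10E IAA replicate 1. For tagged EtOH against untagged IAA, library totals gave 3 lower and 0 higher, DESeq2 3 lower, RLE factors 1 lower, no filter 2 lower and 2 higher, and single libraries left out 0 to 3 lower and 0 to 2 higher. For 10E against 11D under EtOH, they gave 0 to 1 lower and 0 to 3 higher.

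Whether replicate numbers pair libraries was not settled. The correlation of deviations from the group mean was 0.26 between 11D EtOH and 11D IAA, and -0.22 to 0.08 between different lines. Where a group has 2 libraries their deviations mirror each other, so both replicate numbers give the same value. Line 10E, with 1 IAA library, could not be checked. With a replicate block, 33 genes were lower and 3 higher for IAA against EtOH. Against untagged IAA 30 were lower and 1 higher, and for tagged EtOH against untagged IAA 0 were higher. The interaction without 10E IAA replicate 1 could not be fitted. Searching TTCCCGCC in place of the E2F-type motifs found a match for 7 of 40 genes, against 15. Depth limits low genes such as Gins3, with 61 to 418 counts per library.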
